A study of Homo sapiens with 6 samples.

Results

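The starting state of a radioresistant esophageal cancer line was compared with that of its parent: 1 array of KY170R cells at 0 h against 1 array of KY170 cells at 0 h. These are 2 of the 6 arrays of the series, which also holds both lines at 8 and 24 h. KY170 (written kyse170 in the labels) is a human esophageal squamous cell carcinoma line, described as radiosensitive. KY170R is a radioresistant clone raised from it by continuous fractionated irradiation, so that differences between the arrays belong to this clone and its parent and not to resistant cells in general. Both lines were grown in the same medium and differed in no other stated treatment. Time points were counted from irradiation with 6 MV X-rays, the dose behind them is not given, and it is not settled in the sources if cells at 0 h had already been exposed. The question the comparison addresses is which transcripts set the resistant line apart before the later time points.

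The arrays were of the Illumina Human-6 V3 bead type, and a value is the background-subtracted, normalized intensity of 1 of 48803 probes. A probe was taken as measured when its intensity was above 24.5 on at least 1 of the 0 h arrays, 24.5 being the size of the most negative value on any of the 6 arrays. This held for 17105 probes (35.0%), of which 14385 were above that limit on both arrays, and these covered 10524 of the 18665 named genes on the array, each represented by its brightest probe. Values below the limit were raised to it before log2 was taken. A ratio with 1 array under the limit is therefore a lower bound, written as "at least". Probes of SP100 and FPGS lay just inside the limit, each at 24.55 in KY170R. Probes of NMRK1 and CABP2 lay just outside, each at 24.53 in KY170R. With 1 array on each side there is no test and no error for any difference at 0 h, and a difference of 2-fold or more was used as a size, not as a call of significance. The CTF1 probe, from 97.98 to 196.32, was just past it, and the APOL2 probe, from 92.67 to 185.26, was just short of it.

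Radiation kills mainly through DNA breaks and reactive oxygen. Cells meet it with DNA repair, with checkpoints, with the antioxidant and detoxifying genes driven by the transcription factor NRF2, and with stress programmes such as the unfolded protein response, in which the sensors of the endoplasmic reticulum raise chaperones and the factors ATF4, XBP1 and DDIT3. Squamous epithelium of the esophagus is known for its keratins and for a basal layer that carries integrins, desmosomal cadherins and the factor SOX2.

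KY170R carried 831 probes at 2-fold or more above KY170 (4.86% of those measured) and 939 at 2-fold or more below it (5.49%). A ratio of 4-fold or more was found for 83 probes upward and 118 downward. Of the 831, 176 were above the limit in KY170R alone, and of the 939, 282 were above it in KY170 alone. The median log2 difference over all measured probes was 0.02 and its SD 0.65, and the arrays correlated at r = 0.967 across probes, which are not independent replicates. How wide the differences lay depended on brightness. In the brightest of 5 equal bins of probes 2.57% were past 2-fold, and in the bin with mean intensities of 39.0 to 114.5, 25.1% were. A gauge of measurement spread within these arrays comes from the 2354 genes with several measured probes: probes of the same gene differed in their log2 difference with an SD of 0.47. Of 210 genes past 2-fold that had a second measured probe, the other probes pointed the same way in 186 and were past 2-fold the same way in 88. The opposite way was seen past 2-fold in 1 gene.

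**Figure D1:**
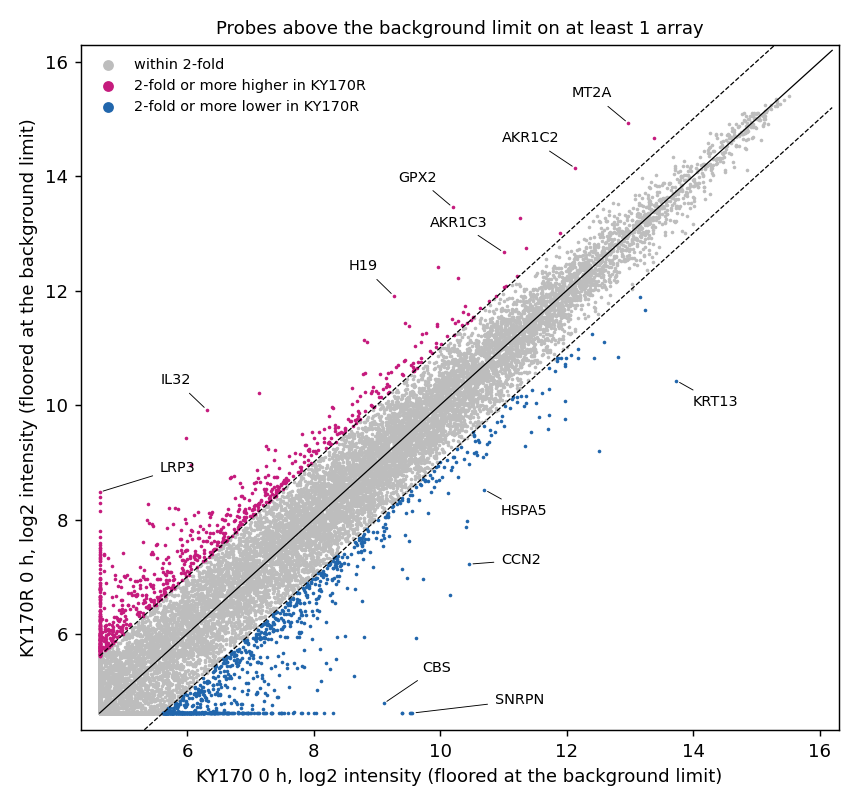
Log2 intensity of each of the 17105 measured probes at 0 h, KY170 on the x axis and KY170R on the y axis, with values under the limit of 24.5 raised to it. The solid line marks equal intensity and the dashed lines a 2-fold difference. The 831 probes at 2-fold or more higher lie above the upper dashed line and the 939 lower ones below the lower line, and the points along the left and bottom edges are lower bounds.

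The cells matched an epithelial, squamous label in part. Intensities of EPCAM (7427 in KY170 and 6678 in KY170R), CDH1, the epithelial cadherin (3198 and 2764) and KRT18 (26354 and 23550.3) were far above the limit in both lines. Of 17 basal squamous genes on the array 16 were measured, with 1 past 2-fold each way and a median log2 difference of 0.16. KRT5, the basal keratin, was at 361 and 218 and SOX2 at 108 and 147, while KRT14 was at 5.9 and 125.5. Of 38 squamous differentiation genes on the array 22 were measured. KRT13 was far above the limit in both lines (13654 and 1377), while KRT4 (3.6 and -12) and IVL (14.5 and 6.3) were among those under it on both arrays. Markers of other cells were scarce: 5 of 14 fibroblast, 4 of 12 endothelial, 7 of 17 immune and 2 of 12 glandular markers were above the limit. Among those at background on both arrays were PTPRC, COL1A2, COL3A1, KDR, VWF and CDX2. The summed intensity of the measured markers was 1111 in KY170 and 1450 in KY170R for fibroblast genes, ACTA2 among them at 273 and 735, 421 and 247 for endothelial genes, 1589 and 1686 for immune genes, and 56 and 8 for glandular genes.

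The genes that stood highest in KY170R were a mixed group. LRP3, a member of the LDL receptor family, was at 5.8 in KY170 and 357 in KY170R, at least 14.5-fold higher. YBX2, an RNA-binding protein known from germ cells, was at 5.7 and 336, at least 13.7-fold higher. For both genes the KY170 array lay at background while the KY170R array was well clear of it. IL32, a proinflammatory cytokine, went from 79.5 to 966, a 12.2-fold difference, and a second IL32 probe gave a log2 difference of 3.44. GPX2, a glutathione peroxidase of epithelia that reduces hydroperoxides, was at 1177 in KY170 and 11230.3 in KY170R, 9.54-fold higher. FEZ1, an adaptor of kinesin transport, followed at 141 and 1183 (8.4-fold), and its other 3 measured probes lay between 0.69 and 2.90 on the log2 scale. STAT5A, a cytokine-activated transcription factor, was at least 7.81-fold higher (22.3 and 192). SPP1, the secreted matrix protein osteopontin, was at least 7.70-fold higher (2.8 and 189). The imprinted non-coding RNA H19 was at 617 and 3838, 6.22-fold higher.

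Among genes that stood lowest, several were near background in KY170R. SNRPN, which encodes a spliceosomal Sm protein and lies in the imprinted region of chromosome 15, was at 757 in KY170 and 2.5 in KY170R, at least 30.9-fold lower. SNURF shares a transcript with SNRPN, and its brightest probe gave 740.5 and -7.5, at least 30.2-fold lower. A second SNRPN probe gave a log2 difference of -4.92 or lower, while the second SNURF probe, at 26.8 and 24.8, lay too close to the limit to show one. IAH1, a putative esterase, was at 676 in KY170 and under the limit in KY170R, at least 27.6-fold lower. CAMKV, a pseudokinase that binds calmodulin, was at 675 and 17.9, at least 27.5-fold lower. CBS, the cystathionine synthase that begins the transsulfuration of homocysteine, was at 553 and 27.6, a 20.0-fold difference. MB, the oxygen-binding protein myoglobin, was at 1142 and 102, 11.2-fold lower. Its other 2 measured probes were at -3.68 or lower and -1.76 or lower on the log2 scale. KRT13, the keratin of differentiated esophageal epithelium, was at 13654 and 1377, 9.92-fold lower. NPPB, which encodes a natriuretic peptide, was at least 10.7-fold lower (262.5 and 12).

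The 8 and 24 h arrays, which the 0 h comparison did not use, give the only second look at these genes. At 8 h 2.7% of the same probes were 2-fold or more higher and 2.55% lower in KY170R, and at 24 h 4.18% and 3.48%. Of the 831 probes higher at 0 h, 181 (21.8%) were past 2-fold the same way at 8 h, 203 (24.4%) at 24 h and 108 (13.0%) at both times, while 555 (66.8%) were past it at neither. Of the 939 lower probes the counts were 172 (18.3%), 148 (15.8%) and 88 (9.37%), with 707 (75.3%) past it at neither. The opposite direction was rare at 8 h, with 5 and 5 probes. At 24 h it was seen for 7 of the higher probes and 44 (4.69%) of the lower ones. The median log2 difference went from 1.26 to 0.38 and 0.32 among the higher probes and from -1.30 to -0.28 and -0.23 among the lower ones. Members picked for a large difference on 1 pair of arrays are bound to be less extreme on others, so these medians do not measure a loss of the difference with time.

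Among the leading genes the later arrays repeated most directions. IL32 was 12.2-fold higher at 0 h and at least 13.1- and 11.2-fold higher at 8 and 24 h, where KY170 was under the limit. GPX2 was 9.54-, 14.5- and 11-fold higher at 0, 8 and 24 h. H19 was 6.22-, 10.7- and 17.1-fold higher, the KY170 values being 617, 231 and 107. SNRPN was under the limit on all 3 KY170R arrays (2.5, -0.3 and 4.0) and at 757, 866 and 884 in KY170. CBS was 20.0-fold lower at 0 h, at least 5.99-fold lower at 8 h and 2.41-fold lower at 24 h. Other leading genes were not alike at the later times. DEPP1, a gene induced by FOXO factors, was at least 6.83-fold higher at 0 h and below the limit on both arrays at 8 h. At 24 h DEPP1 was again higher, at 18.9 in KY170 and 107.8 in KY170R, at least 4.39-fold. CCN2, the connective tissue growth factor, was at 1412 in KY170 and 149 in KY170R at 0 h, 9.47-fold lower. At 24 h the same probe read 141 in KY170 and 2388 in KY170R, 17-fold higher.

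**Figure D2:**
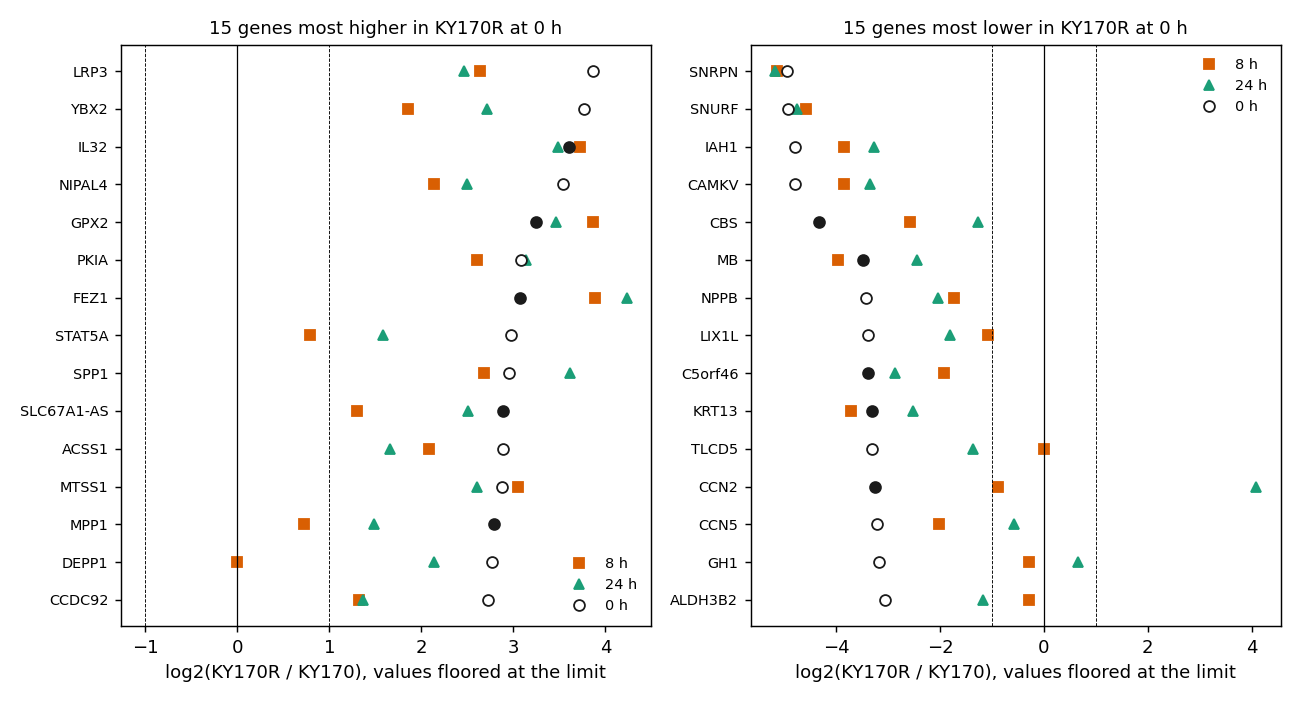
Log2 ratio of KY170R to KY170 at 0, 8 and 24 h for the 15 genes with the largest upward difference at 0 h (left) and the 15 with the largest downward difference (right), 1 pair of arrays at each time. Open circles are lower bounds at 0 h, and bounds at 8 and 24 h are not marked. Dashed lines mark a 2-fold difference, and CCN2 is the gene that is lower at 0 h and 17-fold higher at 24 h.

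The 39 gene lists held 1037 distinct genes, of which 952 were on the array and 746 were measured at 0 h. Their counts read against the named genes as a whole, of which 4.66% were 2-fold or more higher and 5.50% lower, with a median log2 difference of -0.01. The endoplasmic reticulum and amino acid stress genes had the lowest median. Of the 30 measured ATF4 and unfolded protein response genes 9 were 2-fold or more lower and 0 higher, 23 were below KY170 in sign, and the median log2 difference was -0.72. HSPA5, the main chaperone of the endoplasmic reticulum, was at 1665 in KY170 and 368 in KY170R. ATF4 itself was at 3383 and 1244, with a log2 difference of -1.44. Its target ASNS, asparagine synthetase, was at 3119 and 1181. DDIT3, the factor CHOP, was at 922 and 356.5. XBP1 was at 4316 and 1876, DNAJB9, a co-chaperone of HSPA5, at 195 and 81.7, and SESN2, a stress-induced regulator of growth signalling, at 121 and 52.6. All of these were lower in KY170R, and VLDLR (125 and -3.2) and CHAC1 (54.6 and 15.1) were lower with the KY170R value under the limit. Not all members were lower: CALR, HYOU1, PDIA4 and PDIA6, which act in protein folding in the endoplasmic reticulum, had log2 differences of 0.26 to 0.59. The list median was -0.08 at 8 h and 0.23 at 24 h. HSPA5 read 836 and 787 at 8 h, and 377 in KY170 and 4760 in KY170R at 24 h. DDIT3 read 351 and 356 at 8 h and 375 and 2254 at 24 h.

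The ER stress element, CCAAT and CCACG 9 bases apart on either strand, was chosen as a motif after these values had been seen. It was found in the promoter windows (250 bases before to 50 after the start) of 6 of the 29 list genes with a sequence (20.7%). These were CALR, CANX, CRELD2, HSP90B1, HSPA5 and XBP1, whose log2 differences ranged from -2.18 to 0.26. In all, 22 of 27305 promoters held it (0.08%), with 3 of 458 genes at 2-fold or more lower (0.66%) and 0 of 400 at 2-fold or more higher. The promoters of HSPA5 (chr9:125241294-125241593, minus strand) and XBP1 (chr22:28800520-28800819, minus strand), the 2 list genes that held the element and were past 2-fold, follow from RefSeq on GRCh38.p14 with both parts of the element in capitals. A match describes the letters and does not show a site in use.
HSPA5: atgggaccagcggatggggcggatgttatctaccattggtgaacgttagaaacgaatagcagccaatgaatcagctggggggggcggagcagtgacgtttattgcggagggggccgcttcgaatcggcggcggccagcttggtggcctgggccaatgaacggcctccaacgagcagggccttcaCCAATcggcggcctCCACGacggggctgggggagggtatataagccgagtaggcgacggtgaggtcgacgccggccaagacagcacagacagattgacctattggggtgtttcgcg
XBP1: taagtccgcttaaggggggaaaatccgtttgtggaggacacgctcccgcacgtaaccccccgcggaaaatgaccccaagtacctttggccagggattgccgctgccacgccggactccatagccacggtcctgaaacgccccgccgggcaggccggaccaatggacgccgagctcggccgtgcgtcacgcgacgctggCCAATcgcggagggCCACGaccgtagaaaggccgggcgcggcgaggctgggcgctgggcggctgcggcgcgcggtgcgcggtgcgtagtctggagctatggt

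Immediate early genes and feedback inhibitors of MAP kinase signalling, which respond within minutes to growth factors and stress, were also low in KY170R. Of 28 measured members 6 were 2-fold or more lower and 1 higher, 21 were lower in sign and the median log2 difference was -0.48. CCN1, a matricellular protein related to CCN2, was at 5532 in KY170 and 1821 in KY170R. The stress-induced factor ATF3 was at 1539.7 and 563. DUSP1, a phosphatase of MAP kinases, was at 4036 and 1678, and EGR1 was at 150.0 and 65.6. The exception, the phosphatase DUSP6, was at 120.1 and 292, but its second probe had a log2 difference of -0.86. MYC was at 11308 and 6979.7, which is short of 2-fold. At 24 h 10 members were 2-fold or more higher and 0 lower, and the median was 0.52. EGR1 then read 61.0 in KY170 and 1364 in KY170R, and DUSP1 1641 and 6401.

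Metallothioneins, small cysteine-rich proteins that bind zinc and copper, lay the other way. Of 10 members on the array 5 were measured, all 5 were higher in KY170R in sign and 3 were past 2-fold. MT2A was at 8056 and 31140.4 (3.87-fold), MT1E at 2629.5 and 6890.4, and MT1G at 36.0 and 121.7. The paralogs are near-identical in sequence, so that the identity of each probe is uncertain. The order did not hold at the later times: the list median was 1.39 at 0 h, -1.18 at 8 h and -0.74 at 24 h. In KY170 the MT2A intensity was 8056, 36699.6 and 19856, and in KY170R 31140.4, 30334 and 11852 at 0, 8 and 24 h.

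**Figure D3:**
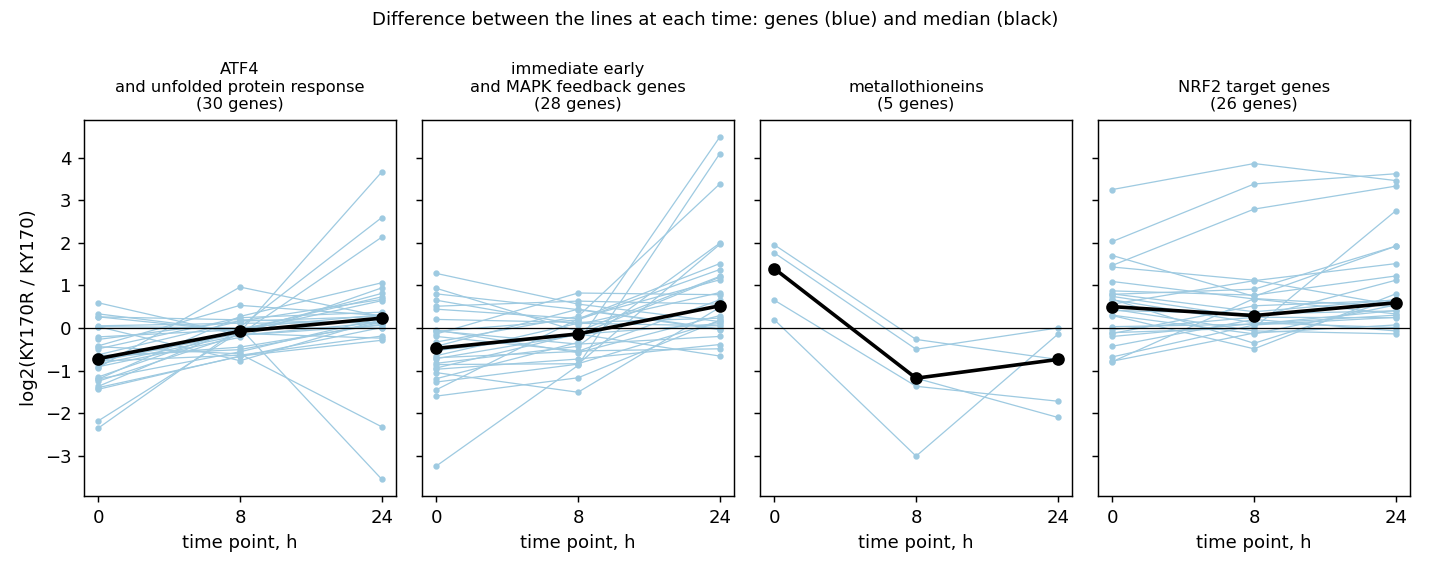
Log2 ratio of KY170R to KY170 at 0, 8 and 24 h for the genes of 4 lists (blue lines) and their median (black), 1 pair of arrays at each time and time points evenly spaced. Medians ran from -0.72 to 0.23 for ATF4 and unfolded protein response genes, from -0.48 to 0.52 for immediate early genes, from 1.39 to -0.74 for metallothioneins, and stayed positive (0.50, 0.29 and 0.59) for NRF2 target genes.

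The list of NRF2 target genes, with antioxidant and detoxifying genes among them, had a median above 0 at all 3 times. Of 26 measured NRF2 target genes 6 were 2-fold or more higher and 0 lower at 0 h, with a median log2 difference of 0.50, and at the later times the medians were 0.29 and 0.59. Besides GPX2 these were CYP4F11, a cytochrome P450 that hydroxylates fatty acids (152 and 623), ALDH3A1, an aldehyde dehydrogenase (989 and 2736), the carbonyl reductase CBR3 (427 and 1148), the epoxide hydrolase EPHX1 (482 and 1022) and the export pump ABCC2 (19.2 and 79.9, a lower bound). Classical members were closer to equal. NQO1, a quinone reductase, was at 1335 and 2437, GCLM, a subunit of the enzyme that begins glutathione synthesis, at 1087 and 1729, and HMOX1, heme oxygenase, at 117 and 108. GCLC, the partner of GCLM, pointed down, at 84.6 and 48.8. The aldo-keto reductases AKR1C2 and AKR1C3, which reduce steroids and prostaglandins, were at 4508.5 and 18055 and at 2059 and 6501, ratios of 4.00 and 3.16. The probes of this family may not tell its close paralogs apart. Of 5 AKR1C2 probes on the array only this one was above the limit at 0 h. AKR1C1 (-4 and -9) and AKR1C4 (10.1 and 12.5) were under the limit on both arrays. AKR1B10, a relative that reduces retinal and aldehydes, was at 31.7 and 170.3.

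The core of the antioxidant response element, TGACNNNGC on either strand, was in the promoter window of 9 of 21 NRF2 target genes (42.9%), of 16.5% of 400 genes at 2-fold or more higher and of 14.9% of 458 at 2-fold or more lower. Its share was 13.6% of all 27305 promoters and 15.7% of 8610 measured genes, so that genes higher at 0 h held it about as often as measured genes in general. The 2 promoters below belong to the list members past 2-fold that held it, GPX2 (chr14:64942696-64942995, minus strand) and CYP4F11 (chr19:15934818-15935117, minus strand), from RefSeq on GRCh38.p14 with the match in capitals.
GPX2: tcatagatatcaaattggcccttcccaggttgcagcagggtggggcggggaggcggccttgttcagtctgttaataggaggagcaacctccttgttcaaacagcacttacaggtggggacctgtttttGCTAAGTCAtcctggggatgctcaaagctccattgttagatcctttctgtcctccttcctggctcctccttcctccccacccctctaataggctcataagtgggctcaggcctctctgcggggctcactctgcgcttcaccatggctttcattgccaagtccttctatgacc
CYP4F11: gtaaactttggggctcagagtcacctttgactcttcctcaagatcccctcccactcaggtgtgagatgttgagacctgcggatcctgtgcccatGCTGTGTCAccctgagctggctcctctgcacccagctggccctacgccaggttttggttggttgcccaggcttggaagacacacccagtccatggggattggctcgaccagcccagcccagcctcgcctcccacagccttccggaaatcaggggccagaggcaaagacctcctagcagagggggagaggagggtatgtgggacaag

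Immune genes of the tumour cells themselves were partly higher. Of 17 measured antigen presentation and immunoproteasome genes 4 were 2-fold or more higher and 0 lower, with a median log2 difference of 0.37. HLA-B was at 459 in KY170 and 2207 in KY170R, the immunoproteasome subunit PSMB9 at 694 and 2763.5, and the peptide transporter TAP1 at 1897 and 3858. HLA genes are highly similar and variable, so that a probe may read its gene differently in other alleles. The log2 differences of HLA-B were 2.27, 2.88 and 2.33 over the 3 times and those of PSMB9 1.99, 2.04 and 1.87. Of 30 measured interferon response genes 5 were higher and 1 lower, the median was 0.35, and it was 1.11 at 8 h, where 16 were 2-fold or more higher. RIGI, the sensor of viral RNA, was at 54.8 and 129, IFIT3 at 158 and 341.5, and IFI27 at 189 and 422.5. Among 24 measured cytokine and NF-kB genes 6 were higher and 1 lower. Besides IL32, the acute phase protein SAA1 was at 54.8 and 241.5, and IL36G, an epithelial cytokine of the IL1 family, was at 0.9 and 97.7. The 1 lower gene was PTGS2, the inducible cyclooxygenase, at 1121 and 352.

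Epithelial identity genes differed in both directions. In the squamous differentiation list 3 of 22 measured genes were 2-fold or more higher and 3 lower. KRT13 and the kallikrein proteases KLK5 (116.5 and -0.4) and KLK7 (50.3 and 9.6) were lower. S100A8, a calcium-binding protein of stressed epithelium (117 and 378), SPRR2A, a cornified envelope protein (14.2 and 99.5), and GRHL3, a factor of epidermal differentiation (25.1 and 65.4), were higher. KRT14, the basal partner of KRT5, was at 5.9 and 125.5, while KRT5 was at 361 and 218. Among mesenchymal and invasion genes 5 of 19 were higher and 3 lower. PLAU, the urokinase plasminogen activator, was at 598 and 1521.5, its receptor PLAUR at 940.0 and 1922 and the collagenase MMP13 at 63.9 and 197. TIMP3, an inhibitor of metalloproteinases, was at 435 and 94.9, THBS1, a matrix glycoprotein, at 2588 and 621, and the cadherin CDH2 at 1329 and 531.

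Genes of DNA repair and of the cell cycle differed little at 0 h. Of 30 measured double-strand break repair and checkpoint genes 0 were higher and 3 lower, TOPBP1 (69.5 and 24.9), RAD54L (339 and 153.5) and CLSPN (86.7 and 42.9), with a median of -0.19. All 29 base excision and nucleotide excision repair genes were within 2-fold, with a median of 0.01. In the lists of G1/S and DNA replication genes 1 of 35 was past 2-fold, CDKN1C (20.6 and 54.0), and of G2/M genes 4 of 44. The G2/M genes past 2-fold pointed both ways, MKI67 (149 and 369.7) and NUF2 (21.3 and 62.6) up, CCNB1 (68.0 and 15.8) and ECT2 (127 and 51.1) down. Of 34 cytosolic ribosomal protein genes 0 were past 2-fold, and their median was -0.01. The p53 target genes were 1 higher and 2 lower of 19. These were the cell cycle inhibitor SFN at 3829 and 8232, CCNG1 at 187 and 61.5 and GDF15 at 4048 and 1635. Of 11 reference genes 1 was past 2-fold, TFRC, the transferrin receptor, at 9189 and 3804. A lack of repeats means that differences within 2-fold do not show equal levels.

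Of 35 measured glycolysis and hypoxia genes 5 were 2-fold or more lower and 0 higher, with a median of -0.35. Besides MB these were LDHB, a lactate dehydrogenase subunit (1560.1 and 668), the mitophagy receptor BNIP3 (4623 and 2019), the MYC antagonist MXI1 (76.0 and 33.5) and ANGPTL4, an inhibitor of lipoprotein lipase (3749 and 1809). The counted members of the replication-dependent histone list were all higher in sign: 15 of 15 measured, 4 of them past 2-fold. Their median was 0.82 at 0 h, 0.60 at 8 h and 0.50 at 24 h. H2BC7 and H2BC8, planned for the list under older names, were not matched to it and are not among those counted. H2BC7 was slightly lower in KY170R, at 61.7 in KY170 and 57.1 in KY170R, and H2BC8 was higher, at 96.6 and 255. H3C10 was at 150.3 and 429.6, H2AC8 at 95.6 and 256, and H2AC18 at 1593 and 3313. Histone genes share sequence, which makes the identity of single probes uncertain, and their transcripts mostly lack a poly(A) tail.

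**Figure D4:**
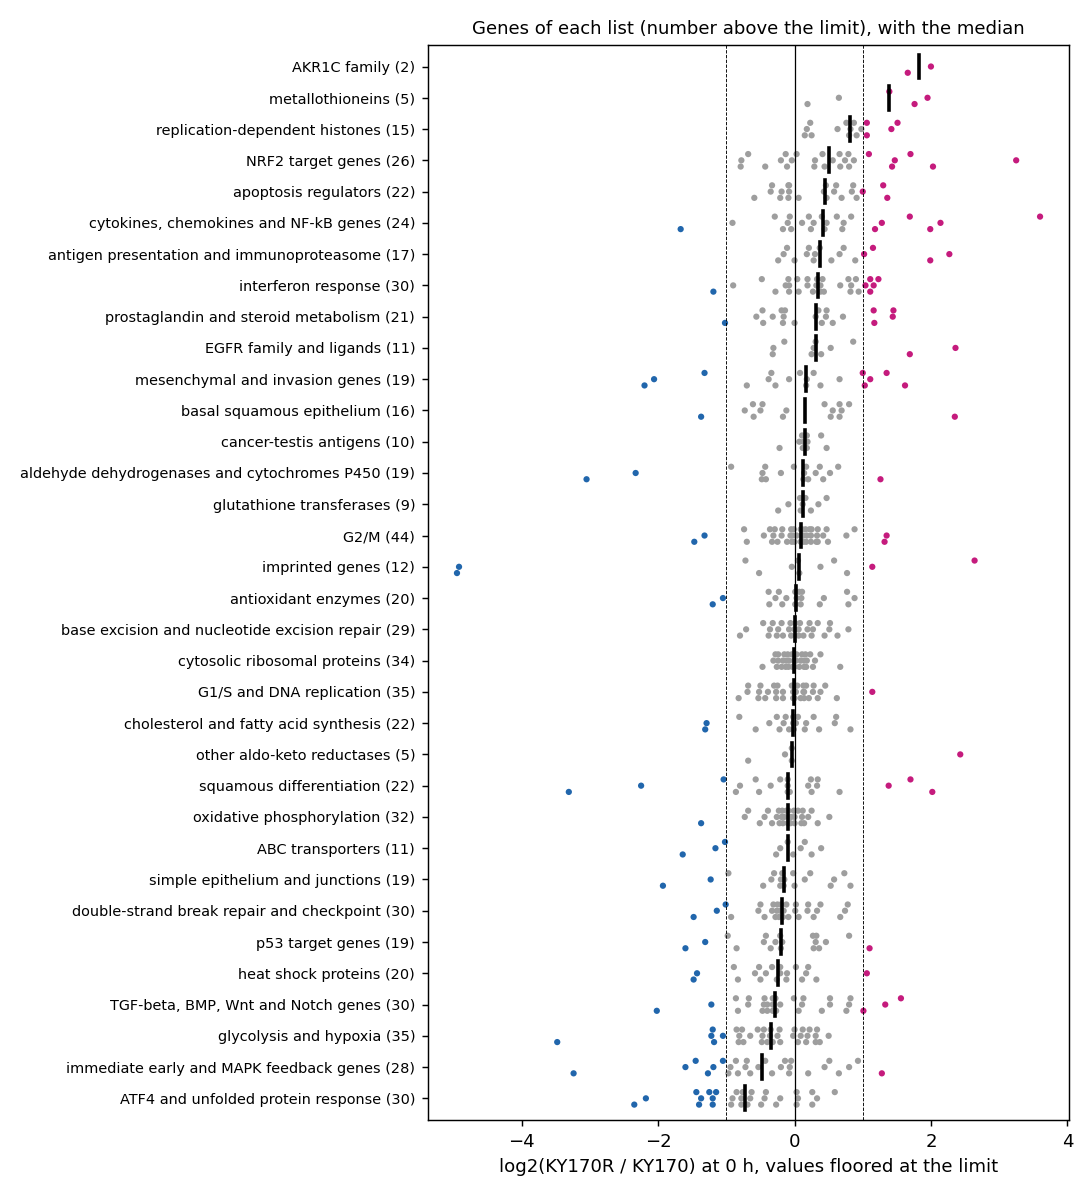
Log2 ratio of KY170R to KY170 at 0 h for every measured gene counted in the lists (number in brackets, cell type markers and reference genes left out). Points are pink at 2-fold or more higher and blue at 2-fold or more lower, with a black bar at the list median. ATF4 and unfolded protein response genes lie lowest (median -0.72). The 2 measured AKR1C genes and the metallothionein genes lie highest (1.83 and 1.39).

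The differences were not spread evenly over the genome. For 10508 genes placed on a chromosome, the medians at 0 h ran from -0.25 on chromosome 22 to 0.16 on chromosome 9. On chromosome 22, 29 of 268 genes were 2-fold or more lower (10.8%) and 5 higher. Its median was -0.40 at 8 h and -0.41 at 24 h, and 136 of the 268 genes (50.7%) were lower in KY170R at all 3 times, against 18.7% of all placed genes. Those past 2-fold lower at all 3 times were MB, TIMP3, SNAP29, a fusion protein of vesicles, the tumour suppressor NF2, FOXRED2, an oxidoreductase of the endoplasmic reticulum, and the pseudogene RRP7BP. On chromosome 9, 34 of 425 genes were 2-fold or more higher (8.0%) and 130 (30.6%) were higher at all 3 times, against 18.3% of all placed genes. The medians of chromosomes 8 (-0.20), 3 (-0.16) and 19 (0.14) were between -0.03 and 0.00 at 8 and 24 h. Genes lower at all 3 times still made up 28.2% on chromosome 8, 23.5% on chromosome 3 and 30.9% on chromosome 21, and genes higher at all 3 times made up 32.0% on chromosome 20. Gene length also went with the difference at 0 h. With genes in 5 equal bins of span, the median was 0.10 in the shortest bin (median 4.3 kb) and -0.12 in the longest (144.3 kb). In the same bins the medians were 0.00 and 0.03 at 8 h, and -0.05 and 0.01 at 24 h. The part of gene length in the results above was not tested.

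In windows of 15 neighbouring measured genes, 90% of the medians lay between -0.41 and 0.37. The lowest of 10186 windows was on the long arm of chromosome 3, from GFM1 to GOLIM4, with a median of -1.08. Of its 15 genes 12 were lower in sign and 9 past 2-fold. The mitochondrial elongation factor GFM1 was at 709 and 125, the nuclear import receptor KPNA4 at 2074 and 797, the ribosome export adaptor NMD3 at 226 and 43.6, the condensin subunit SMC4 at 747 and 361, and PDCD10, a protein of cerebral cavernous malformations, at 703 and 277. The median was -0.91 at 8 h, with all 15 genes lower in sign, and -0.83 at 24 h, with 12. The next lowest separate window, from MYNN to TBL1XR1, began after 2 further measured genes and had medians of -0.79, -0.26 and -0.52. The third, on chromosome 1 from GADD45A to ZZZ3, had a median of -0.78 with 14 of 15 genes lower, and of -0.22 and -0.34 later. The highest window, with a median of 0.87, lay in the histone cluster of chromosome 6 from H2AC6 to BTN3A3, and its medians were 0.46 and 0.55 at 8 and 24 h. The second highest lay on chromosome 16 from LAT to TAOK2, with 14 of 15 genes higher in sign and medians of 0.70, 0.10 and 0.00. The third highest lay in the major histocompatibility complex from CYP21A2 to PSMB9, with medians of 0.67, 0.25 and 0.00. RNA levels alone do not measure the copy number of these regions.

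**Figure D5:**
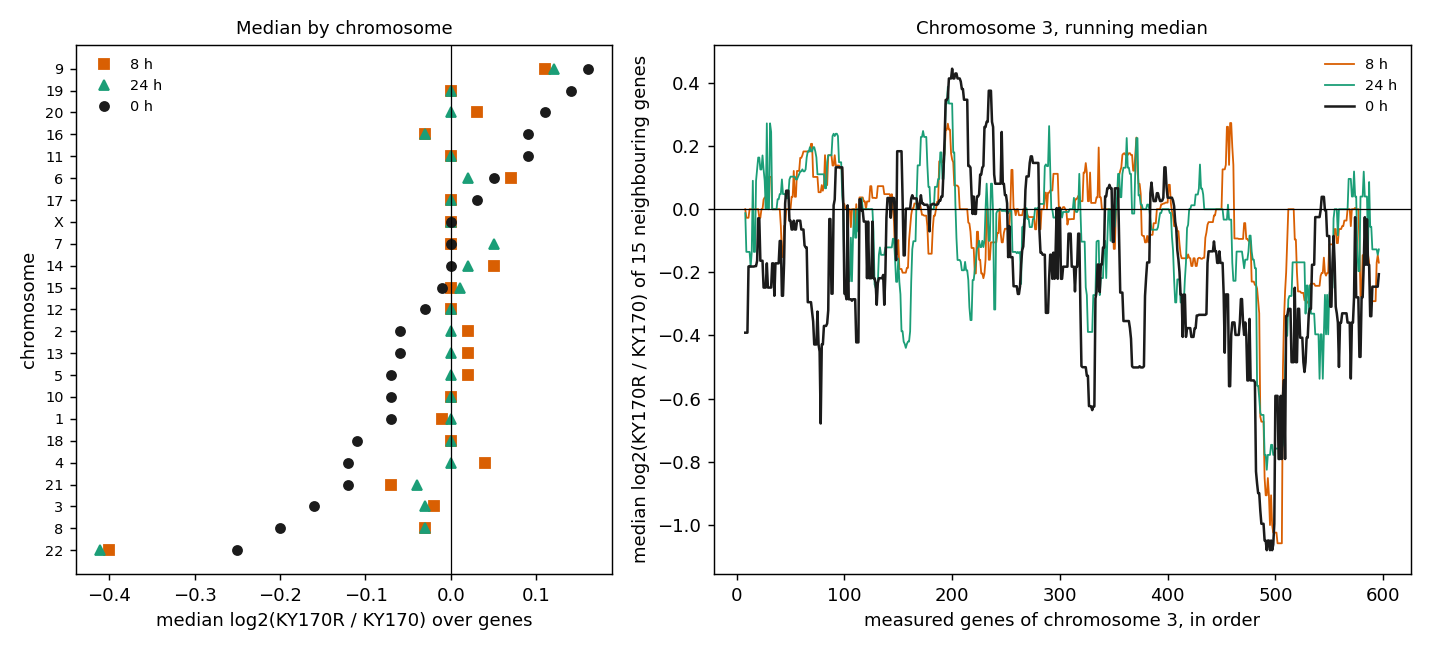
Left, median log2 ratio of KY170R to KY170 over the measured genes of each chromosome at 0, 8 and 24 h, ordered by the 0 h median. Right, running median of 15 neighbouring genes along chromosome 3 in gene order, with the trough from GFM1 to GOLIM4 reaching -1.08 at 0 h.

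The interaction test asked whether the difference between the lines at 0 h was unlike that at the later times. It set 0 h against the mean of 8 and 24 h in limma, over 12565 probes above the limit on all 6 arrays. The fit had 2 residual degrees of freedom and took the 8 and 24 h arrays of a line as its repeats. Because real change between those arrays entered the spread, the test could not show by a lack of calls that the 0 h difference held. It called 0 probes (0%), with 49 at an unadjusted p under 0.05 and every adjusted p at 1. The interaction of HSPA5 was -3.97 ± 1.47 (SE, log2) with an adjusted p of 1. For MT2A it was 2.46 ± 0.82 and for MT1E 3.03 ± 1.10, each with an adjusted p of 1. These genes were chosen for a large difference at 0 h, a choice that by itself favours a large interaction. Without the KY170R 8 h array limma called 29 probes and without the KY170R 24 h array 1, on 1 residual degree of freedom, and without the KY170 8 h or the KY170 24 h array it called 0. With each later time given its own term, limma called 3 probes: MT2A (adjusted p = 0.0315), MT1X (adjusted p = 0.0468) and the cytokine IL1A (adjusted p = 0.0468). That fit also had 1 residual degree of freedom, and its added time term was shared by both lines. MT2A and MT1X had the higher difference at 0 h, and IL1A the lower one, at 2114 and 2449 against 1935 and 16233 at 24 h.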

How the data were processed

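RNA of 6 samples, 1 for each line and time point, had been labelled as biotin cRNA and hybridised by the authors, who read the arrays with Illumina BeadStudio, whose version is not given. Profiling was in triplicate per the methods, and whether a value pools such repeats is not given. The intensity values the authors deposited had been background-subtracted (29.9% below 0 on each array) and normalized between arrays (medians of 6.46 to 6.47), by a method not given. Of 48803 probes 27578 had 1 gene symbol, 13 several and 21212 none, and 27541 were matched to RefSeq of GRCh38.p14. All 6 value columns were used.

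Values were floored at 24.5 and turned into log2 (Python 3.11.15, pandas 2.3.3). Named genes were the 15 with the largest ratio each way, the 10 each way above the limit on both arrays, up to 4 members of each list past 2-fold, and AKR1C3 (124 in all). Further list members in the text were chosen after their values were seen. Members and lists were chosen with earlier results of these data known. The interaction was fitted in limma 3.58.1 (R 4.3.3) with a trended, robust prior variance and Benjamini-Hochberg adjustment, after the script was tested on simulated data. With 1 sample a group, its p-values measure only the spread between these arrays. The software's own score for calling genes was not computed. Alternatives were other floors, filters, scalings and probe choices, and other variance models. Leaving out each later array was added after seeing the data.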

Additional observations from a re-analysis of the deposited data

How the results depend on the processing

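Higher and lower counts, 831 and 939 probes, were 1385 and 1587 with a floor of 1, 557 and 578 with a floor at 2 times the limit, and 83 and 118 at 4-fold. Quantile normalization gave 833 and 938, centring on the median 787 and 995, probes above the limit on both arrays 655 and 657, and no filter 831 and 939. Dropping the filter could not change the counts, because probes under the limit on both arrays have a difference of 0. The arrays were already normalized, with medians of 6.46 to 6.47, so quantile normalization could change little. Of 124 named genes 0 dropped under 2-fold with a floor of 1, quantile normalization or centring, 20 did with the higher floor and 6 (MT1E, DUSP6, BMF, ABCG1, PTGS1 and HSD17B11) with the mean over a gene's probes. With a floor of 1 the 0 was fixed beforehand, because a lower floor can only keep or widen a ratio. The median of the aldehyde dehydrogenase and cytochrome P450 list went from 0.13 to -0.20 with that mean, and 4 other lists with medians between -0.02 and 0.02 changed sign or came to 0 with that mean, quantile normalization or centring. The interaction called 102 of 17105 probes when tested on every probe measured at 0 h, of which 94 had all 4 later arrays under the limit, 3 of 12565 with each time as a term, and 0 with quantile normalization or one prior variance. Leaving out each later array, added after seeing the data, gave 0 to 29 calls, with 29 without the KY170R 8 h array and 1 without the KY170R 24 h array. At 0 h no array could be left out. No paired analysis was possible because the labels carry no replicate numbers, beyond the fit with each time as a term.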

Other observations

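Growth factor and signalling genes not described above differed in single members. Of 11 measured genes of the EGFR family and its ligands 2 were 2-fold or more higher in KY170R at 0 h, the ligand BTC (28.2 in KY170 and 145 in KY170R) and the receptor kinase MST1R (38.3 and 123), and 0 lower. Among 30 TGF-beta, BMP, Wnt and Notch genes 3 were higher and 2 lower. WNT10A, a Wnt ligand of skin and its appendages, was at 59.8 and 177, and FST, an activin antagonist, at 1191 and 2405. TGFB2 was at 99.2 and 19.5, with log2 differences of -2.02 (a bound), -1.73 and -2.27 at 0, 8 and 24 h. The Wnt antagonist DKK1 was at 3592 and 1546. Of 21 prostaglandin and steroid metabolism genes 4 were higher and 1 lower. PTGR1, a reductase that inactivates leukotrienes and prostaglandins, was at 986 and 2678, and its log2 difference was 1.44, 1.44 and 1.86 over the 3 times. Of 22 apoptosis regulators 2 were higher and 0 lower, BMF (14.6 and 63.1) and the death ligand TNFSF10 (14.5 and 60.5), both with the KY170 value under the limit.

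Of 11 measured members of the ABC transporter list 0 were 2-fold or more higher and 3 lower, among them ABCG2 (76.6 and 8.9), while ABCC2, counted with the NRF2 target genes, was higher (19.2 and 79.9). Of 12 measured imprinted genes 2 were higher, H19 and CDKN1C, and 2 lower, SNRPN and SNURF. Of 19 aldehyde dehydrogenase and cytochrome P450 genes 1 was higher and 2 lower, ALDH1B1 (153 and 30.4) and ALDH3B2 (204 and 17.7). ALDH3A1 (989 and 2736) and CYP4F11 (152 and 623), counted with the NRF2 target genes and not among these 19, were higher. Heat shock proteins (1 of 20 higher, 2 lower), antioxidant enzymes (0 of 20 higher, 2 lower), cholesterol and fatty acid synthesis (0 of 22 higher, 2 lower), simple epithelium and junctions (0 of 19 higher, 2 lower) and oxidative phosphorylation (0 of 32 higher, 1 lower) had medians between -0.24 and 0.02. The glutathione peroxidase GPX2 (1177 and 11230.3), counted with the NRF2 target genes and not in the antioxidant enzyme list, was higher. None of 9 glutathione transferases or 10 cancer-testis antigens was past 2-fold, and of 5 other aldo-keto reductases 1 was, AKR1B10.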
